A study of Homo sapiens with 7 samples.

Results

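5-hydroxymethylcytosine (5-hmC) was followed around 9 genes of glucose use that are known targets of the hypoxia response: SLC2A1, HK1, HK2, PFKFB3, PFKFB4, ALDOC, ENO2, LDHA and PDK1. Each gene was taken as a window in the build hg19 that reaches 20 kb beyond the gene at both ends, and a 5-hmC peak belonged to a gene when its midpoint lay in that window. The 9 windows have a summed length of 818 kb. At 0 h they held 171 of 285292 peaks and at 6 h 175 of 292707. The next lists had 185 of 294096 peaks there (12 h) and 207 of 312126 (24 h), and the last pair 237 of 336931 (48 h) and 225 of 352484 (72 h). When overlapping peaks of all times were merged into regions, 254 of 415474 regions lay in these windows.

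The cells were SK-N-BE(2), an established neuroblastoma line with an amplified MYCN gene, labelled wild type in every sample. They were kept in 1% oxygen (hypoxia) for 6, 12, 24, 48 or 72 h, or in 21% oxygen (normoxia) at 0 h. 5-hmC-bearing DNA fragments were chemically labelled, captured and sequenced, and each time has 1 list of enriched places (peaks), given as chromosome, start and end alone. With 1 library per time no value has a replicate error, differences between times are differences between 2 libraries, and, since normoxia was sampled at 0 h alone, low oxygen and time in culture cannot be told apart.

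Glycolysis splits glucose into pyruvate, and cells short of oxygen send more of that pyruvate to lactate and less to the mitochondria. The hypoxia-inducible factors (HIFs), which are stabilised when oxygen is low, switch on many genes of this route by binding a short DNA core, the hypoxia response element. 5-hmC is made from 5-methylcytosine by the TET enzymes, which themselves use oxygen, and in many cell types it lies along active genes and their enhancers. The lists hold no expression, so whether these genes were induced in these cells was not measured, nor could the cell type be checked by its markers.

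The lists as a whole lengthened with time. The 72 h list had 1.24 times the peaks of the 0 h list and covered 1.31 times its length (192.1 Mb, against 146.7 Mb at 0 h). The narrowest peak also differed between lists, with 242 bp in the 72 h list and 226 bp in the 0 h list, and read depth is unknown. Values for the genes are therefore given as found and also relative to the totals, that is, divided by the ratio of the 2 lists' totals. The part that depth or capture plays in any difference was not tested.

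Over the 9 windows together the covered length grew more than the peak number. From 0 to 72 h, peaks covered 98.5, 108, 113, 128, 162 and 158 kb of them. Relative to the totals, the ratio to 0 h was 1.02, 1.09, 1.16, 1.35 and 1.22 from 6 to 72 h, highest at 48 h. The summed peak number relative to the totals was 1.06 at 72 h, with a 95% exact binomial interval of 0.869 to 1.31 that covers counting error only and includes 1. All 9 genes had more bp under peaks at 24, 48 and 72 h than at 0 h, and 7 of 9 did so at 72 h beyond the growth of the list. The median over the 9 genes at 72 h was 1.27 for covered length, where the median over 18216 bins of 100 kb was 1.05 and their middle range, from the lower to the upper quartile, ran from 0.907 to 1.27.

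**Figure D1:**
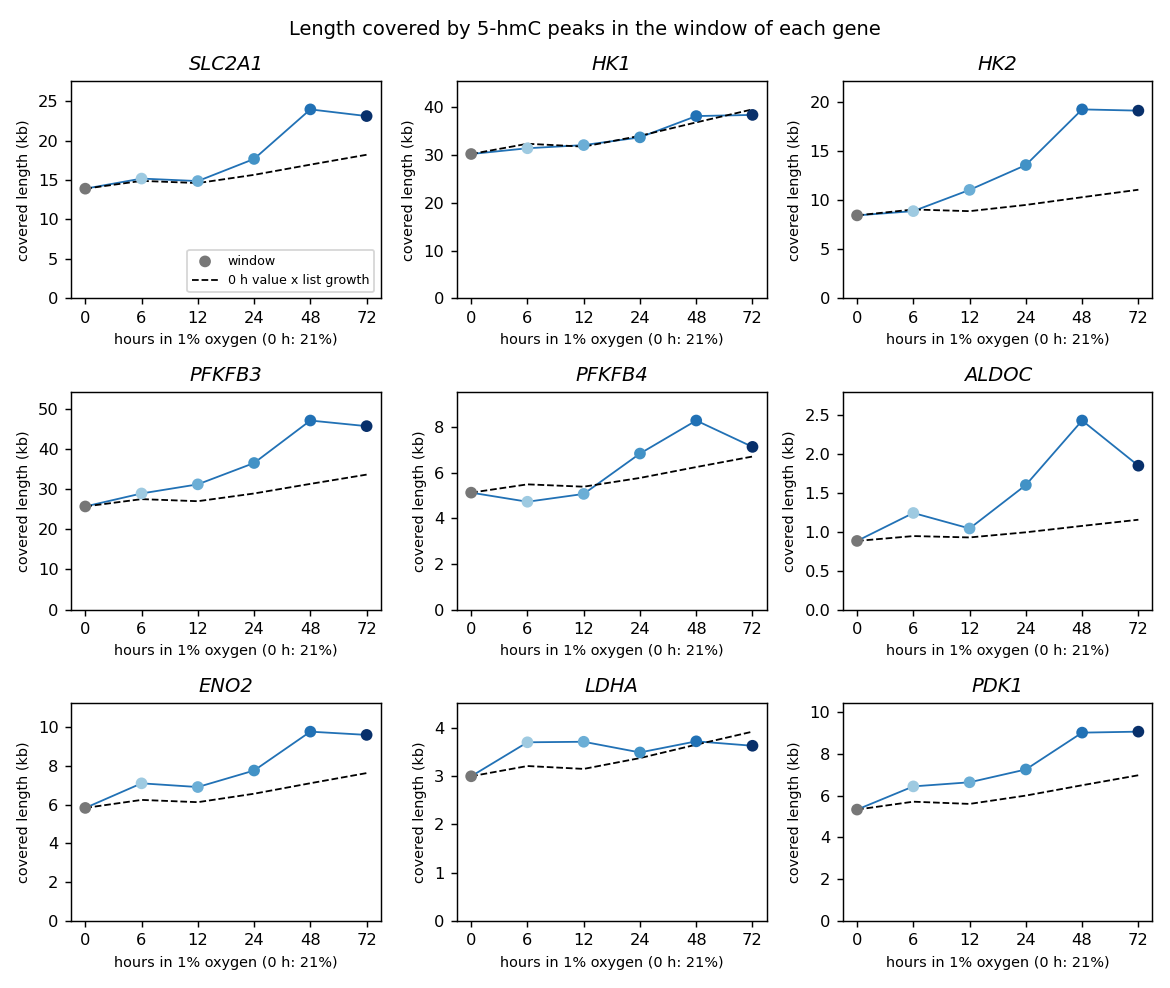
Length under 5-hmC peaks (kb) in the window of each of the 9 genes against hours in 1% oxygen, with 0 h in 21% oxygen; each point is 1 list. Each panel has its own vertical axis. As multiples of 0 h, the 48 h lengths are largest in ALDOC (2.75, on few peaks), HK2 (2.28) and PFKFB3 (1.83). LDHA stays between 3.0 and 3.73 kb, and most curves level off or turn down between 48 and 72 h.

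Glucose enters the cell through SLC2A1 (GLUT1), the main transporter of the blood-brain barrier and of many tumours. Its 74.0 kb window on chromosome 1 (chr1:43371001-43445000) held 26, 27, 26, 27, 33 and 32 peaks from 0 to 72 h. These covered 13903, 15182, 14865, 17669, 23946 and 23099 bp. The first 3 lists were close to each other, and the 48 and 72 h lists stood above the rest. Relative to the totals, covered length was 1.27 times the 0 h value at 72 h and peak number 0.993 times (interval 0.575 to 1.74). Of the 9196 bp by which the 72 h list exceeded the 0 h list, 2838 bp (30.9%) lay in 8 regions without a 0 h peak and the rest in regions already marked at 0 h. It was the most densely marked of the 9 windows at 0 h, with 35.1 peaks per 100 kb.

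Hexokinases trap glucose in the cell by phosphorylating it. HK1 is the form found in most tissues, brain included, whereas HK2 is the form typical of muscle, fat and many tumours. HK2 gave the clearest difference among the 9 genes. Its window on chromosome 2 (chr2:75040001-75141000) held 19, 17, 22, 29, 33 and 32 peaks from 0 to 72 h. They covered 8468, 8904, 11069, 13603, 19279 and 19151 bp, so that the covered share of the window was 19.0% at 72 h, against 8.38% at 0 h. Covered length relative to the totals was 1.87 times the 0 h value at 48 h and 1.73 times at 72 h. Of the 10683 bp added by 72 h, 5406 bp (50.6%) lay in 13 regions that had no peak at 0 h. Peak number was 1.35 times the 0 h value at 72 h, with an interval of 0.75 to 2.55 that includes 1.

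HK1 differed little. Its window, the longest at 172.0 kb (chr10:71010001-71182000), held 52, 50, 51, 54, 53 and 54 peaks from 0 to 72 h. These covered 30187, 31390, 32051, 33669, 38117 and 38360 bp. The bp grew at every step but no faster than the list by 72 h, with 0.97 for covered length and 0.84 for peak number relative to the totals (interval 0.564 to 1.25). Along HK1 the peaks lay mostly from 41 kb onward in a dense band, and the first 5 kb of the gene held none at any time. RefSeq gives HK1 7 start windows that spread over 64.6 kb (build GRCh38.p14), so the outermost start is not the only place where its transcripts begin.

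PFKFB3 and PFKFB4 make and remove the small sugar phosphate that activates phosphofructokinase, and so set the pace of glycolysis. PFKFB3, whose kinase side dominates, stood next to HK2. Its window (chr10:6167001-6298000) held 38, 43, 50, 55, 63 and 55 peaks from 0 to 72 h. They covered 25732, 28978, 31251, 36580, 47183 and 45778 bp, the largest length of the 9 windows from 24 h on. Each list up to 48 h exceeded the one before it. Covered length relative to the totals was 1.5 times the 0 h value at 48 h and 1.36 times at 72 h, and peak number 1.17 times at 72 h (interval 0.761 to 1.82).

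PFKFB4, on chromosome 3 (chr3:48535001-48615000), was marked more sparsely. It held 9, 8, 8, 13, 14 and 14 peaks from 0 to 72 h, covering 5131, 4732, 5075, 6847, 8297 and 7140 bp. The 3 early lists were close to each other in bp and lay below the 3 late ones. Relative to the totals, its covered length was 1.33 times the 0 h value at 48 h and 1.06 times at 72 h. Its peak number at 72 h was 1.24 times (interval 0.508 to 3.3).

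ALDOC and ENO2 are the brain forms of aldolase and enolase, and ENO2, neuron-specific enolase, is a serum marker of neuroblastoma. ENO2 (chr12:7003001-7053000) held 10, 10, 10, 12, 17 and 17 peaks from 0 to 72 h. These covered 5831, 7103, 6911, 7765, 9775 and 9607 bp, and the 48 and 72 h lists lay above all earlier ones. Relative to the totals, covered length was 1.26 and peak number 1.35 times the 0 h value at 72 h (interval 0.595 to 3.36). ALDOC (chr17:26880001-26925000) had only 2, 4, 3, 4, 6 and 5 peaks from 0 to 72 h, with 881, 1240, 1041, 1599, 2427 and 1847 bp. Its mean of 4 peaks was below the 5 that a call required here. Its ratio of 1.6 for covered length at 72 h came from the flanks, since the gene part alone had a ratio of 0.712.

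LDHA turns pyruvate into lactate, and PDK1 keeps pyruvate out of the mitochondria by phosphorylating pyruvate dehydrogenase. The LDHA window (chr11:18395001-18450000) held 5, 5, 5, 3, 5 and 5 peaks from 0 to 72 h, on average 4.67 and so too few for a call. These covered 3000, 3706, 3717, 3495, 3726 and 3634 bp. The 5 hypoxia lists lay between 3495 and 3726 bp, all above the 0 h list, yet relative to the totals the window had 0.925 times the 0 h length at 72 h. PDK1 (chr2:173400001-173510000) held 10, 11, 10, 10, 13 and 11 peaks from 0 to 72 h. These covered 5328, 6440, 6637, 7252, 9018 and 9065 bp, with each list above the one before. Covered length was 1.3 times the 0 h value at 72 h relative to the totals, while peak number was 0.886 times (interval 0.343 to 2.34).

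A window was called higher or lower when its ratio to 0 h, scaled as above, reached 1.5 or fell to 0.667 or less and its mean over the 6 lists was at least 5 peaks, which 7 of the 9 windows met. By peak number, 0 of 7 were called at any time in either direction. The bins of 100 kb gave the background. At 6 h, 3.51% of bins were called higher and 1.9% lower. The shares were 3.2% and 2.07% for 12 h, 4.86% and 1.09% for 24 h, 7.64% and 1.25% for 48 h and 10.1% and 1.69% for 72 h. With backgrounds this low, 0 of 7 is near what the bins show.

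By covered length, HK2 was called higher at 48 and 72 h and PFKFB3 at 48 h. That makes 2 of 7 at 48 h, where 10.2% of bins were called higher and 0.582% lower, and 1 of 7 at 72 h, where 12.7% were called higher and 1.12% lower. At 6, 12 and 24 h 0 of 7 were called. The bins then gave 2.86% higher and 1.44% lower at 6 h, 2.69% and 1.42% at 12 h, and 4.83% and 0.445% at 24 h. All 7 windows average over 10 peaks, with PDK1 lowest at 10.8. Among the 12313 bins with at least 10 peaks on average, the shares called higher were 3.65% at 48 h and 4.99% at 72 h. The windows range from 45.0 to 172.0 kb, so the bins are not of the same length, and with 7 windows a count of 1 or 2 is a description.

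**Figure D2:**
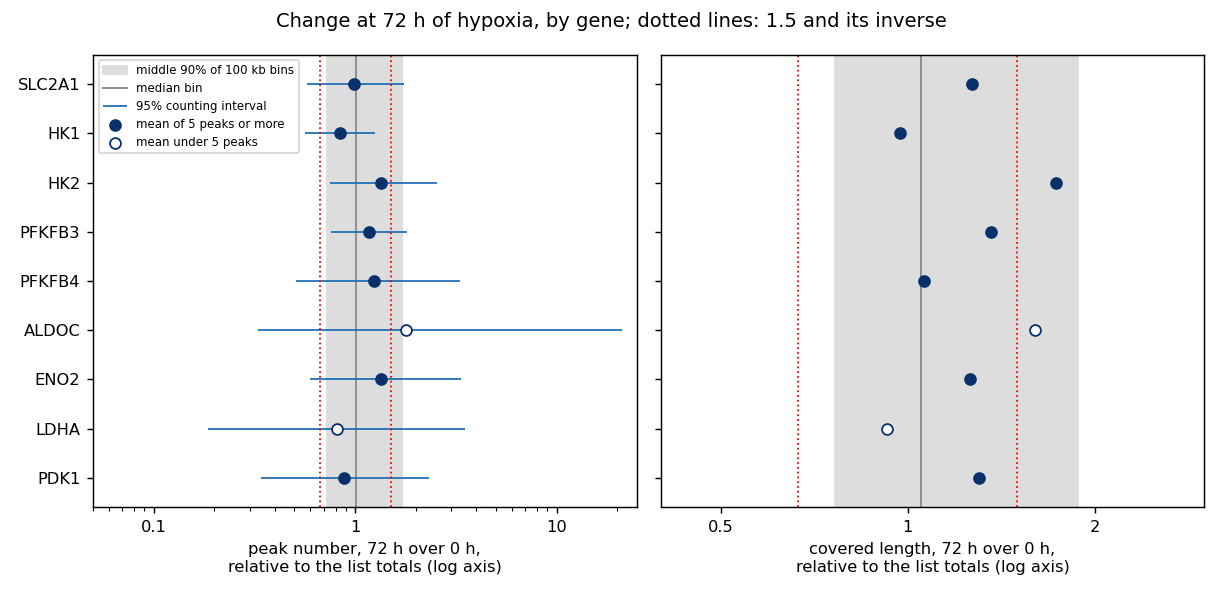
Ratio of 72 h to 0 h relative to the totals (log axis) for peak number, with 95% exact binomial intervals for counting error, and for covered length, in each of the 9 windows. The intervals of peak number include 1 for every gene, and HK2 and ALDOC have the highest covered-length ratios, 1.73 and 1.6, of which ALDOC rests on a mean of 4 peaks.

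The largest step lay between the 24 and 48 h lists, when all 9 windows gained covered length, 33289 bp in sum, and this was the largest gain of 7 genes: SLC2A1, HK1, HK2, PFKFB3, ALDOC, ENO2 and PDK1. HK2 covered 1.42 times as much at 48 h as at 24 h, SLC2A1 1.36, PFKFB3 1.29 and LDHA 1.07 times, against 1.083 times in the list as a whole. From 48 to 72 h, 7 of the 9 windows covered less, with PFKFB4 at 0.861 and ALDOC at 0.761 times their 48 h length, against 1.074 times in the list. HK1 and PDK1 were the 2 that covered more.

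The surroundings of the genes were set beside them. In the HK2 window, covered length relative to the totals was 1.73 times the 0 h value at 72 h, against 1.13 in the 500 kb on each side of it. For PFKFB3 the window had 1.36 and the surroundings 1.03, for SLC2A1 the window 1.27 and the surroundings 1.03, for PDK1 the window 1.3 and the surroundings 1.04, and for ENO2 the window 1.26 and the surroundings 1.05. For LDHA the order turned, with 0.925 in the window and 1.12 in the surroundings. HK1 had 0.97 in the window and 0.955 around it, PFKFB4 1.06 and 1.0, and ALDOC, which rests on few peaks, 1.6 and 0.959. The short arm of chromosome 11, on which LDHA lies, had 0.889 times its 0 h length, and the long arm of chromosome 17, on which ALDOC lies, 0.983 times. In sum, the gene parts of the 9 windows had 1.22 and their flanks 1.23 times the 0 h length at 72 h. The order varied with time, with 1.11 and 1.29 at 24 h and 1.36 and 1.32 at 48 h. Genes differed too. From 0 to 72 h the HK2 flanks went from 716 to 2887 bp and its gene part from 7752 to 16264 bp. The PFKFB4 flanks went from 4304 to 5519 bp and its gene part from 827 to 1621 bp. The 20 kb flanks of a window may reach into neighbouring genes, such as PIGS beside ALDOC and ATN1 beside ENO2 (order of genes in GRCh38.p14).

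Places marked at 0 h were largely marked at 72 h too, in these windows and in the lists as a whole. Of the 0 h peaks in the 9 windows, 164 of 171 (95.9%, exact interval 91.7 to 98.3%) overlapped a 72 h peak by at least 1 bp, against 89.8% of all 0 h peaks. Of the 72 h peaks, 152 of 225 (67.6%, 61.0 to 73.6%) overlapped a 0 h peak, against 70.3% of all 72 h peaks. Both intervals cover counting error only and treat neighbouring peaks of 1 pair of lists as independent, so they do not test a difference from all peaks. Of the 254 regions, 127 were in all 6 lists, against 46.8% of all regions. A further 4 (1.57%) first appeared at 6 h and stayed, where the background was 2.99%. The same held for 9 (3.54%, background 1.39%) with a first appearance at 12 h and 12 (4.72%, background 1.94%) with one at 24 h. It held for 13 (5.12%, background 3.61%) at 48 h, and 13 (5.12%, background 7.13%) were seen at 72 h alone. At 0 h alone there were 3 (1.18%, background 1.84%), and 5 (1.97%, background 3.7%) were lost at some time and did not come back.

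Regions absent at 0 h and present at both 48 and 72 h numbered 45 (17.7%, against 13.7% of all regions). Of these 45, 25 (55.6%) lay in HK2 and PFKFB3, which hold 96 of the 254 regions (37.8%), the 25 included. Both windows had been called higher by covered length at 48 h. The 25 regions are part of that length, so their share restates those calls in part. Of the 45 regions, PFKFB3 had 15, HK2 10, SLC2A1 and PFKFB4 5 each, HK1 4, ALDOC and ENO2 3 each, and LDHA and PDK1 0. The reverse, present at 0 h and absent at 48 and 72 h, held for 4 regions (1.57%, background 3.81%): 2 in HK1, 1 in SLC2A1 and 1 in PFKFB4. An HK1 region at chr10:71122134-71122954 covered 657 bp (0 h) and 520 bp (6 h) and was absent from 12 h on. The 3 regions seen at 0 h alone were 226 to 227 bp long, and 226 bp is the smallest length that list holds.

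In HK2, 6 regions appeared at 12 h and stayed. The longest, 9.8 kb before the start of the gene at chr2:75049731-75050666, covered 0 bp at 0 and 6 h and 244, 597, 726 and 803 bp from 12 to 72 h. It widened at each list in which it was present. Inside the gene, chr2:75094853-75096111 was absent up to 24 h and covered 1015 bp (48 h) and 819 bp (72 h). In PFKFB3, chr10:6255337-6256552 was absent at 0 h and covered 374, 353, 811, 860 and 1216 bp from 6 to 72 h. A PFKFB4 region close to the start of the gene, which is known to about 1 kb, was likewise absent at 0 h. This region, chr3:48594928-48595409, covered 293, 236, 406, 355 and 482 bp from 6 to 72 h. The others present from 6 h on were chr10:6224298-6224791 in PFKFB3 and chr10:71168912-71169466 after HK1.

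**Figure D3:**
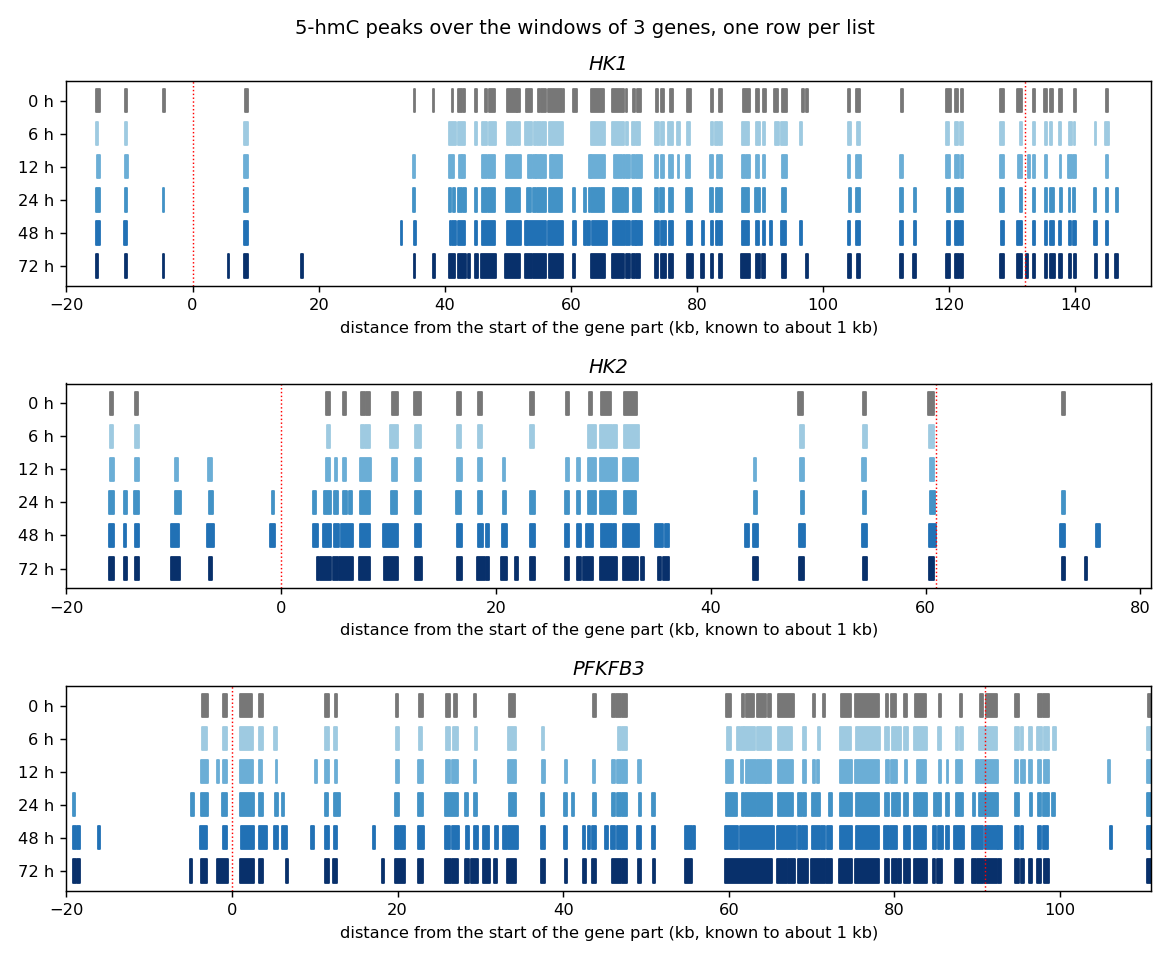
5-hmC peaks in the windows of HK1, HK2 and PFKFB3, with 1 row per list from 0 to 72 h; the x axis is the distance in kb from the start of the gene, and dotted lines mark the bounds of the gene part. HK1 keeps its band of peaks in every list, HK2 gains peaks on both sides of its start, and PFKFB3 fills in along the 60 to 73 kb stretch.

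Places marked at every time also widened. Of the 127 regions in all lists, 106 (83.5%) covered more bp at 72 h than at 0 h, where 71.1% of all such regions did. A gain of at least 1000 bp was found in 5 (3.94%), against 0.178% of the 194585 regions in all lists, and a loss of that size in 0, against 0.0144%. Since long regions can gain more, the share was also taken over regions of at least 1000 bp on average over the 6 lists, where it was 4 of 33 (12.1%), against 0.925%. That average includes the 48 and 72 h lists, so a region can pass through its own gain, and length at 0 h was not held equal. A region of SLC2A1 and one of PDK1, with 791 and 681 bp at 0 h, passed in this way. The length of 1000 bp was chosen after the values were seen, so these shares are a description. Several peaks at 0 h had become a single peak at 72 h in 10 of the 127 regions (7.87%, background 5.98%).

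These 5 regions lay in 4 genes. In SLC2A1, chr1:43420812-43423299, centred 2.94 kb after the start, covered 791, 895, 1060, 1568, 2488 and 2426 bp from 0 to 72 h. In PDK1, chr2:173421695-173424120, centred 2.91 kb after the start, covered 681, 273, 1289, 1494, 2418 and 2393 bp. Both were more than 3 times as long at 48 and 72 h as at 0 h, and SLC2A1 grew at each step up to 48 h while PDK1 was shortest at 6 h. PFKFB3 held the longest, chr10:6246520-6252451, where 5 peaks of 3314 bp in all at 0 h had become 1 peak of 5698 bp at 72 h, with 4097, 3955, 4613 and 5664 bp from 6 to 48 h. A second PFKFB3 region nearby, chr10:6256893-6258598, covered 499, 248, 654, 937, 1495 and 1675 bp from 0 to 72 h. In HK1, chr10:71082675-71086071 covered 2009, 2560, 2462, 2597, 3312 and 3327 bp. PFKFB3 has 2 RefSeq start windows, 58.0 kb apart in GRCh38.p14.

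Among the 89 regions with exactly 1 peak in each list, 73 (82.0%) were wider and 15 narrower at 72 h than at 0 h, and 71.2% of all such regions were wider. Their median length was 548 bp at 72 h, against 430 bp at 0 h, and that of all such regions 502 bp at 72 h, against 434 bp at 0 h. Those that widened most were chr1:43399743-43400855 in SLC2A1, by 802 bp, and chr2:75069490-75070917 and chr2:75063644-75064648 in HK2, by 764 and 618 bp. The 3 that narrowed most were all in the HK1 window, led by chr10:71014640-71015361, with 349 bp in the 72 h list and 622 bp in the 0 h list. The longest peaks of other windows took different courses. The longest of PFKFB4, chr3:48539557-48541043 in its downstream flank, covered 1103 bp (72 h) and 1426 bp (0 h). At ALDOC, chr17:26904400-26904956, close to the start (known to about 1 kb), was present at 24 h (496 bp) and 48 h (557 bp) alone. The ENO2 region chr12:7034642-7036459 covered 1394, 1429, 1685, 1642, 1689 and 1818 bp from 0 to 72 h, lowest at 0 h and highest at 72 h.

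The first 5 kb after the outermost start were then compared, a distance chosen after the SLC2A1 and PDK1 regions had been seen. Summed over the 9 genes they held 6014, 5463, 6998, 9252, 13989 and 12287 bp from 0 to 72 h, a ratio of 2.04 at 72 h and of 1.56 relative to the totals. SLC2A1 and PDK1 are part of this sum, so it restates in part the regions that led to it. The relative ratio was 1.48 in the 5 kb before the start, 1.44 in the first 10 kb after it and 1.2 from 10 to 20 kb after it. The bp in the first 5 kb were 2800 at 72 h and 791 at 0 h in SLC2A1, 2402 and 681 in PDK1, and 1431 and 387 in HK2, each at least 3.53 times as long at 72 h. PFKFB4 covered 0, 39, 0, 318, 1478 and 1071 bp there, and in the 5 kb before the start 401, 851, 1253, 1388, 1795 and 1978 bp. The region near the start that was present from 6 h on is part of these lengths. Since the start is known to about 1 kb, the side on which that region lies is not certain.

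At the other outermost starts the 72 h and 0 h lists were closer. PFKFB3 had 2120 bp in the 72 h list and 1896 bp in the 0 h list, ENO2 945 and 861 bp, LDHA 1092 and 941 bp, ALDOC 426 and 457 bp, and HK1 0 bp in both. Relative to the totals, each of these apart from HK1 was below 1 (0.854, 0.838, 0.886 and 0.712). PFKFB3 has 2 RefSeq start windows, 58.0 kb apart, and HK1 7, and only the outermost start of each was measured. The PFKFB3 region centred 62.5 kb after its outermost start covered 3314 bp at 0 h and 5698 bp at 72 h. ALDOC was not level in between, with 457, 385, 433, 1027, 1057 and 426 bp from 0 to 72 h, so its 24 and 48 h lists stood above the other 4. No annotation of hg19 was at hand, so the starts of all other genes were not measured and these lengths have no background.

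**Figure D4:**
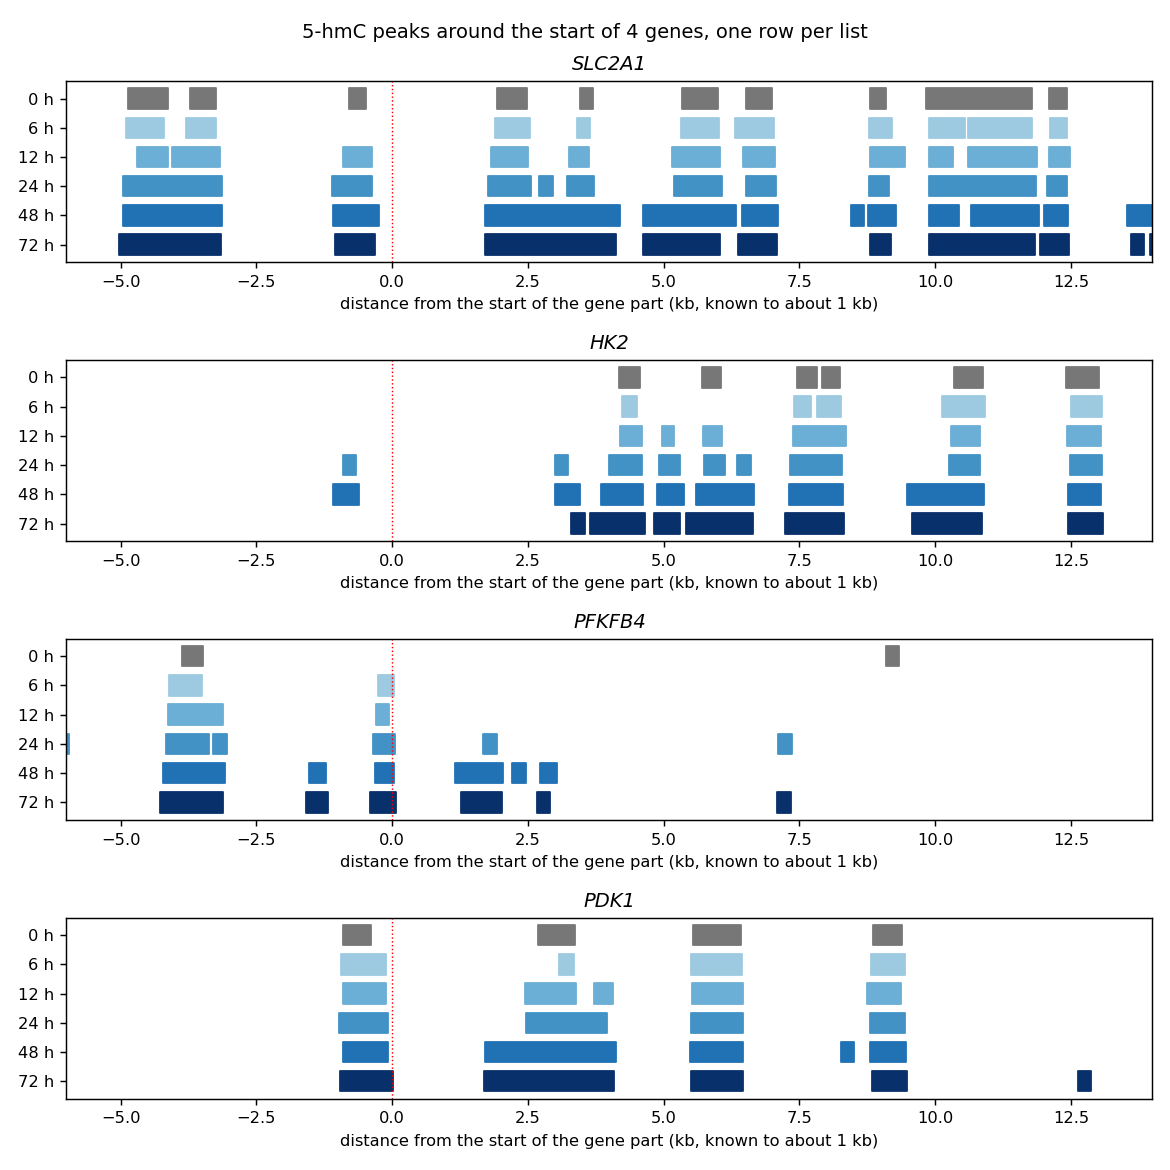
Peaks around the outermost start of SLC2A1, HK2, PFKFB4 and PDK1, with 1 row per list from 0 to 72 h. The x axis is the distance in kb from the start in the direction of transcription, and the start is known to about 1 kb. Within 5 kb after the start, SLC2A1, PDK1 and HK2 are covered more at 48 and 72 h than at 0 h. PFKFB4 is bare there at 0 h and is covered most at 48 h.

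The promoters of these genes carry the HIF core to different degrees, and 5 are printed. SLC2A1, HK2 and PDK1 covered more in the first 5 kb at 72 h. ALDOC and LDHA, whose 72 h and 0 h lists were close there, carry the core most often among such genes. PFKFB3, ENO2 and HK1, also close there, and PFKFB4, which covered more at 72 h, are not printed. The sequences are RefSeq windows from 250 bases before to 50 after a start, in the build GRCh38.p14, which is not that of the peaks, so no peak was placed on them. They are chr1:42958819-42959118 on the minus strand for SLC2A1, chr2:74834920-74835219 on the plus strand for HK2, chr2:172555840-172556139 on the plus strand for PDK1, chr17:28576846-28577145 on the minus strand for ALDOC and chr11:18394313-18394612 on the plus strand for LDHA. Capitals mark the letters ACGTG or GCGTG on either strand, and adjoining or overlapping matches run together. Of genes with 2 windows, the window with more matches is shown.
SLC2A1: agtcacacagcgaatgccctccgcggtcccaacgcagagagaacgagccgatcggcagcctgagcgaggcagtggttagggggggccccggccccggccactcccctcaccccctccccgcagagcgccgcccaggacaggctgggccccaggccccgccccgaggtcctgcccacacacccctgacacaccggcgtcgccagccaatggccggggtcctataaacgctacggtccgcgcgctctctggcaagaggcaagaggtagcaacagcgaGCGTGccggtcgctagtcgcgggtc
HK2: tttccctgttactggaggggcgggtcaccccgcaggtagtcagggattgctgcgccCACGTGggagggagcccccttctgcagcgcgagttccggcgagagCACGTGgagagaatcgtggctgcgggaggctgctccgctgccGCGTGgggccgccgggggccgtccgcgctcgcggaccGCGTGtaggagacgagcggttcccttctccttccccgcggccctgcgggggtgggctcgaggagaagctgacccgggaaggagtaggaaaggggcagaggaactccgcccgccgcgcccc
PDK1: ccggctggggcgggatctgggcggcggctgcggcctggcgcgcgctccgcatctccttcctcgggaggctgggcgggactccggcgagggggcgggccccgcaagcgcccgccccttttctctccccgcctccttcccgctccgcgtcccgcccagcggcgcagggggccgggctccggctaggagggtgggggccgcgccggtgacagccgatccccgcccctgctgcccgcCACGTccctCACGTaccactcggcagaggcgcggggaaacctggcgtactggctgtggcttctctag
ALDOC: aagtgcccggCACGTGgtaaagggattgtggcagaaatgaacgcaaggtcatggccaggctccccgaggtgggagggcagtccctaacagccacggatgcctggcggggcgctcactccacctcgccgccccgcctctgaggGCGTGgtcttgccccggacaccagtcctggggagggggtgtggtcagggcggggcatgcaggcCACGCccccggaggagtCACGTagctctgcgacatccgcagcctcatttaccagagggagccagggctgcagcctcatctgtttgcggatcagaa
LDHA: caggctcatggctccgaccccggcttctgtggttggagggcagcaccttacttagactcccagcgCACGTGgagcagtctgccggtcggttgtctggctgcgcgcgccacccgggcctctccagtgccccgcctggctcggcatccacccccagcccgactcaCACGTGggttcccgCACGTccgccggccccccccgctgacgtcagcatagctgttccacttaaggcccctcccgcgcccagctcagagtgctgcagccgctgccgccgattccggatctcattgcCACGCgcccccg

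LDHA and HK2 each had 6 matches and ALDOC 5, counting CACGTG as a match on each strand, whereas PDK1 had 2 and SLC2A1 1. The genes whose first 5 kb covered several times more at 72 h were thus mixed, with 6 matches in HK2, 2 in PDK1 and 1 in SLC2A1. Of the genes whose 72 h and 0 h lists were close there, LDHA held 6 and ALDOC 5. PFKFB3 held at most 2 in a window, and ENO2 and HK1 at most 1. PFKFB4, with 0 bp at 0 h and 1071 bp at 72 h there, held 1. Whether the number of matches goes with the covered length was not tested. The most matches in any window was 1 for HK1, PFKFB4 and ENO2 and 2 for PFKFB3. All 9 genes were found in the table, with 19 start windows, 13 of which (68.4%) held ACGTG or GCGTG on either strand, against 48.4% of all 35116 windows of that length. ACGTG alone was in 36.8% of them, against 21.4%, and GCGTG in 52.6%, against 36.5%. These windows were also richer in CG pairs, with a median of 29, against 14 over all windows, and the part of this in the shares was not tested. A match is a string of letters, not a measured binding site.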

How the data were processed

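Each deposited list holds 3 columns, the positions in bp (chromosome, start, end) of peaks that the authors made per sample, with no height, p or fold. Per the labels' protocols, DNA was sheared to 300 bp, 5-hmC was given an azide-bearing glucose and biotin on a cleavable linker, and fragments were captured on streptavidin. The submitters' processing notes name BWA 0.7.17, MACS2, HTSeq and hg19 without role or order. The peak threshold is not given in the sources used here, nor is any control, and depth is unknown. The input was not analysed here.

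Peaks were assigned by midpoint, and 0 peaks crossed a window's edge with the midpoint outside. Ratios have 0.5 added to both peak numbers. Intervals are conditional exact binomial (ratios) or Clopper-Pearson (shares), at 95%. No p-value was computed. The gene part is the window less 20 kb at each side, its start known to about 1 kb, and strands come from RefSeq. Sites named were the longest peak per window, regions from 6 h on, those at 0 h alone and the 3 that widened or narrowed most. The members, windows and measures were chosen with earlier results of these data known, and the distances from starts, the 1000 bp length and the bins with at least 10 peaks after their values were seen. Other glycolysis genes were not analysed here. Computations were tested on simulated lists. Python 3.11.15, NumPy 2.4.6, pandas 2.3.3, SciPy 1.17.1 and Matplotlib 3.10.9 were used.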

Additional observations from a re-analysis of the deposited data

How the results depend on the processing

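No paired analysis was possible because each time has 1 library. A count or a share of bins was taken as moved when it changed by over 1.5 times, and a peak-number ratio or a share of peaks when it left its own counting interval. All 81 ratios of single genes stayed inside theirs, but the intervals are wide: 11 crossed 1, 7 crossed 1.5 upward and 3 fell below it. HK2 reached 1.92, PFKFB4 1.6 and ENO2 1.67, LDHA was at 1.35 in its gene part, and ALDOC at 0.729 with peaks of at least 500 bp. Of 71 covered-length ratios 5 crossed 1, among them ALDOC at 0.712 in its gene part, and PFKFB4 was at 1.5 in its gene part, on too few peaks for a call. HK2 stayed at 1.6 or above for covered length under each alternative run. With no scaling to the totals, the summed ratio of 72 h to 0 h was 1.31, and the covered lengths of SLC2A1 (1.66), PFKFB3 (1.78), ENO2 (1.65) and PDK1 (1.7) passed 1.5. The number of windows called by peak number, 0 as reported, became 1 at 24 h, 4 at 48 h and 3 at 72 h without scaling. It became 1 at each of 24, 48 and 72 h with peaks of at least 500 bp (6 windows tested) and with 6 h as the reference. It was 1 at 48 h with equally long lists of the widest peaks, and with covered length 2 at 48 h and 1 at 72 h. Regions in all lists were 54 with peaks of at least 500 bp. Regions from 6 h on were 2 in the gene parts alone, 2 when joined over 300 bp, and 5 to 13 with a list left out, the highest without 6 h. Regions at 0 h alone were 8 with equally long lists, and 3 to 7 with a list left out (5 without 48 h, 7 without 72 h). At an overlap of 0.5 of both peaks, 51.6% of 72 h peaks and 67.8% of 0 h peaks were shared. Bins called in either direction were 2.01, 1.62, 1.65, 3.77 and 4.7% from 6 to 72 h at a mean of 10 peaks, against 5.42, 5.27, 5.95, 8.89 and 11.8%, and 8.67% at 6 h with peaks of at least 500 bp. The causes were not tested. The lists give no depth, so a place missing from a list may be marked below its threshold.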

Other observations

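The time courses of covered length were set against each other by the root mean square difference of their log2 ratios to 0 h over the 5 hypoxia times. ENO2 and PDK1 were closest, at 0.04, followed by PFKFB3 and PDK1 at 0.08 and SLC2A1 and ENO2 at 0.1. HK1 was nearest to LDHA, at 0.15, and HK2 to PFKFB3, at 0.23. All of these ratios share the 0 h list, so the distances are a description.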
